A study of Mus musculus with 6 samples.

Results

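The genes described here are 10 regulators of the G1 phase of the cell cycle: the Cip/Kip inhibitors Cdkn1a, Cdkn1b and Cdkn1c, the INK4 inhibitors Cdkn2b, Cdkn2c and Cdkn2d, the D cyclins Ccnd1, Ccnd2 and Ccnd3, and Myc. They were chosen by name from this pathway, and all 10 were found among the 18512 rows of the count table. RNA was sequenced from NMuMG cells, an epithelial line from normal mouse mammary gland, in 3 groups of 2 libraries, described in the methods as biological replicates. The groups were DMSO (the vehicle), TGF-β at 5 ng/ml, and TGF-β at 5 ng/ml with 2APB at 50 uM, an inhibitor of store-operated calcium entry that also acts on other channels. All cells were serum-starved for 4 h first and treatment lasted 24 h, although one passage of the methods places the 2APB before TGF-β, and the order was not settled. No cells given 2APB alone were sequenced, so its action without TGF-β was not measured.

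D cyclins bind CDK4 and CDK6, and these kinases phosphorylate the retinoblastoma protein, which frees E2F factors to switch on genes for DNA replication. INK4 proteins bind CDK4 and CDK6 and keep them from D cyclins, while Cip/Kip proteins bind cyclin-CDK complexes, above all those of CDK2, and also help D cyclin complexes to assemble. MYC drives growth, ribosome production and cell cycle entry, and TGF-β is known as a growth inhibitor of many epithelial cells, acting in part through more p15 (from Cdkn2b), more p21 (from Cdkn1a) and less MYC.

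Between 71840570 and 79473182 counts were assigned to genes per library. Counts are given here as normalized counts, scaled by the TMM method of edgeR to the mean library, and folds are on the same scale. Tests were run where the mean normalized count reached 20, which kept 13353 genes and all 10 members, and a gene was called changed at a false discovery rate (FDR) of 0.05 or less in edgeR's quasi-likelihood test fitted to all 6 libraries. With 2 libraries a group, the tests measure only the spread between these libraries. The epithelial keratins Krt8 and Krt18 were abundant throughout (at least 234425 and 161005 normalized counts) and rose with TGF-β by 0.66 and 0.92 on the log2 scale and with 2APB by a further 0.90 and 0.89. Of the other 3 epithelial markers, Krt19 fell by 2.04 with TGF-β and by a further 2.05 with 2APB, Cdh1 fell with TGF-β by 0.78, and Epcam fell with TGF-β by 1.42 and had at most 163 normalized counts. Summed markers of myoepithelium, endothelium, adipocytes and erythroid cells reached at most 49.3 per list, and Plin1, Lep and the 4 globin genes listed had no row in the table. Summed fibroblast markers (Pdgfra, Pdgfrb and Dcn) were 88.8 to 90.4 in DMSO, 616 to 709 in TGF-β and 805 to 946 in TGF-β+2APB, so they moved with the groups, and their part in the results was not tested. Summed leukocyte markers were 583 to 704 in DMSO, 218 to 316 in TGF-β, 178 in replicate 1 of TGF-β+2APB and 2399 in replicate 2 of TGF-β+2APB, where Itgam stood at 1004 against 11.9 in the other replicate. The part of that library in the results was not tested, and each call that was lost without it is named below. In bulk RNA, fewer cells of a type and less RNA per cell cannot be told apart.

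The cells responded to TGF-β at the level of RNA. The pathway's own inhibitor genes Smad7 (log2 1.0, SE 0.08, FDR = 0.000405, edgeR quasi-likelihood) and Skil (log2 0.78) and the EMT factor Snai1 (log2 1.86) rose, while Id1, Id2 and Id3, which encode inhibitors of differentiation, fell by 1.44, 1.04 and 1.13 on the log2 scale. The log2 difference of Tgfbi was -2.98 with an FDR of 0.247, which was not called.

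With TGF-β relative to DMSO, 6 of the 10 G1 regulators were called, where 41.5% of all tested genes were (21.8% higher and 19.7% lower). Cdkn2b, Ccnd1 and Myc rose, and Cdkn1a, Cdkn1b and Cdkn1c fell. Cdkn2c, Cdkn2d, Ccnd2 and Ccnd3 were not called. The libraries of both groups did not overlap for 8 of the 10 members, and for 72.5% of all tested genes. The median log2 difference of the members was 0.02 and that of all tested genes -0.01. The same 6 members were called under each of the 15 alternative settings listed in the processing summary.

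**Figure D1:**
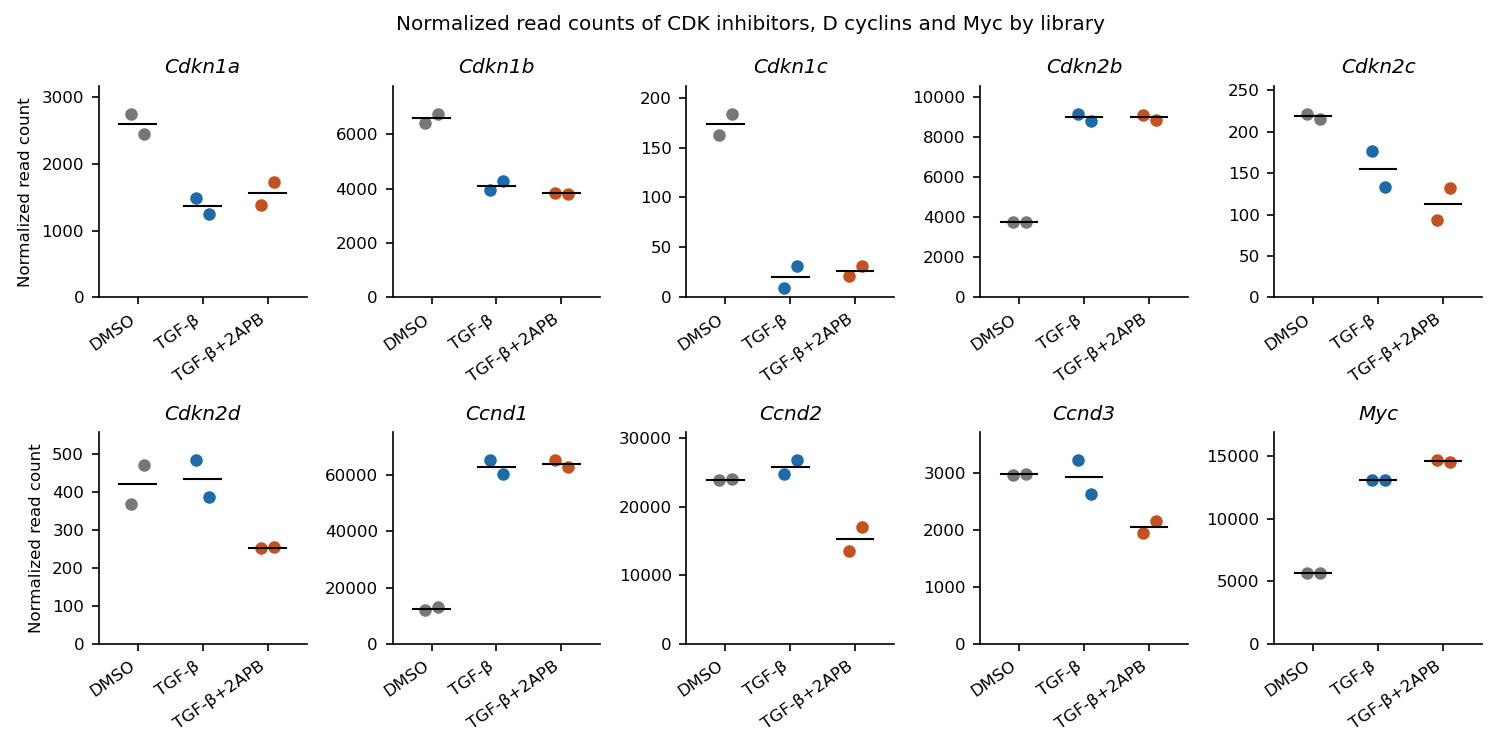
Normalized counts (linear axis, separate for each gene) of each of the 10 members in the 6 libraries, 2 points a group for DMSO, TGF-β and TGF-β+2APB. Ccnd1, Cdkn2b and Myc stand higher in all 4 libraries with TGF-β than in DMSO, Cdkn1a, Cdkn1b and Cdkn1c stand lower, and Ccnd2, Ccnd3 and Cdkn2d are lowest in TGF-β+2APB.

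Among the INK4 inhibitors, Cdkn2b (chromosome 4, 89306299 to 89311039, minus strand, GRCm38) encodes p15. It had 3748 and 3773 normalized counts in DMSO, 9169 and 8819 in TGF-β, and 9105 and 8841 in TGF-β+2APB. All 4 libraries with TGF-β lay above both DMSO libraries, and those with and without 2APB overlapped. TGF-β raised Cdkn2b 2.39-fold (log2 1.26, SE 0.07, FDR = 0.000139 by edgeR quasi-likelihood), and FDR values over the alternatives ran up to 0.00531. When 2APB was added, the log2 difference of Cdkn2b had a 95% confidence interval of -0.17 to 0.17 (FDR = 0.979, edgeR quasi-likelihood). No annotated gene overlaps the exons of Cdkn2b, and none of its 50-base stretches occurs in another transcript, so reads of this length can be assigned to it alone.

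The 250 bases before the annotated start site are shown for the inhibitor genes called in this comparison for which RefSeq windows (GRCm38.p6) were found, because promoters are where TGF-β and p53 signals are known to reach Cdkn2b and Cdkn1a. Windows were found for 6 of the 10 members, and none for Cdkn1c, Ccnd1, Ccnd2 and Myc. The letters searched on both strands were CAGAC (the SMAD element), GGGCGG (the GC box of Sp1 and KLF factors), CACGTG (the E-box of MYC), TTTGGCGC (an E2F site), GTAAACA (a FoxO site) and the p53 half-site. Capitals mark the matches. The window of Cdkn2b lies at chr4:89311033-89311282 on the minus strand, that of Cdkn1b at chr6:134920151-134920400 on the plus strand, and those of the start sites of Cdkn1a at chr17:29090729-29090978 (window 1) and chr17:29093519-29093768 (window 2) on the plus strand.
Cdkn2b: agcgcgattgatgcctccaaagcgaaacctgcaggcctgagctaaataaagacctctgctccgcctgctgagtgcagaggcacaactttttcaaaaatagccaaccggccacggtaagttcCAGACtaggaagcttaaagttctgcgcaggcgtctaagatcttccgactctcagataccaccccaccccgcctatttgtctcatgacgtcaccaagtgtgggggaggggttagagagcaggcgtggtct
Cdkn1a window 1: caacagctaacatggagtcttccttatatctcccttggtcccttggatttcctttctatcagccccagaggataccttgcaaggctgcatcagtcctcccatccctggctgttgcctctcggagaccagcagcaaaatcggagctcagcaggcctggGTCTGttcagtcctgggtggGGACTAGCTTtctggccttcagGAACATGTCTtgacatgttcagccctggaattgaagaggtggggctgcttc
Cdkn1a window 2: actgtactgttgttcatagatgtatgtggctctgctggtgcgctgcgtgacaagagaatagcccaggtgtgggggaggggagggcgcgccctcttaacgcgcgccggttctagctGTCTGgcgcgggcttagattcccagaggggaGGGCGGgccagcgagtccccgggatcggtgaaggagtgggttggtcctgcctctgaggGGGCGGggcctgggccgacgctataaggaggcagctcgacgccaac
Cdkn1b: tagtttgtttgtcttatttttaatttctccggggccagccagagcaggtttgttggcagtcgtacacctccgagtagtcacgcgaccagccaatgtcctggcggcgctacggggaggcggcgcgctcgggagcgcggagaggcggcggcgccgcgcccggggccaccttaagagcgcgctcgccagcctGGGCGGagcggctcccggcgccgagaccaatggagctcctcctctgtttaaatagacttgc

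The Cdkn2b window held 1 SMAD element, at -129 from the start site. In window 1 of Cdkn1a a SMAD element at -93 and p53 half-sites at -73 and -51 were found, and window 2 held a SMAD element at -135 and GC boxes at -104 and -46. The Cdkn1b window held a GC box at -61. None of the 4 windows held an E-box, an E2F site or a FoxO site in these letters, and no matches overlapped each other. Over all 32851 RefSeq windows of this length, 42.2% held the SMAD element, 32.7% the GC box, 7.13% a p53 half-site, 6.02% the E-box, 3.17% the FoxO site and 0.417% the E2F site, so the SMAD element and the GC box are common letters. The matches are descriptions of sequence, and binding was not measured.

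Cdkn2c (p18) and Cdkn2d (p19) stood at lower per-length levels than Cdkn2b in every library. Cdkn2c had 222 and 215 normalized counts in DMSO, 177 and 133 in TGF-β, and 93.1 and 132 in TGF-β+2APB. Its groups did not overlap in any comparison, though by a narrow margin between TGF-β and TGF-β+2APB, and neither step was called. The log2 difference was -0.49 from DMSO to TGF-β (95% interval -1.16 to 0.17, FDR = 0.194) and -0.46 from TGF-β to TGF-β+2APB (-1.13 to 0.21, FDR = 0.29). From DMSO to TGF-β+2APB it fell by 0.96 on the log2 scale (SE 0.27, FDR = 0.0284, edgeR quasi-likelihood). That call was lost with the replicate number as a block (FDR = 0.0614), and without either DMSO library or replicate 1 of TGF-β+2APB (FDR = 0.0987 to 0.126), over a range of 0.008 to 0.126 in all alternatives.

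Cdkn2d had 368 and 471 normalized counts in DMSO, 483 and 386 in TGF-β, and 251 and 255 in TGF-β+2APB. The DMSO and TGF-β libraries overlapped, and both TGF-β+2APB libraries were lower than all others. The difference between TGF-β and DMSO was 0.05 (log2, 95% interval -0.42 to 0.52). With 2APB added, Cdkn2d fell 1.72-fold (log2 -0.78, SE 0.19, FDR = 0.0441, edgeR quasi-likelihood). This call held in 7 of 15 alternatives, with FDR values from 0.00844 to 0.155. It was lost with the replicate block (FDR = 0.0969), without a filter on low counts, with only the 4 libraries compared, and without any one library other than replicate 2 of TGF-β. Without replicate 2 of TGF-β+2APB, the log2 difference was -0.79 (FDR = 0.138).

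Cdkn2a, the neighbour of Cdkn2b on chromosome 4, was listed beside the members. Its reads come from the p16 and ARF transcripts, which share exons. It rose with TGF-β by 1.11 (log2, SE 0.16, FDR = 0.00368, edgeR quasi-likelihood) and fell with 2APB added by 0.89 (SE 0.16, FDR = 0.0196).

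All 3 Cip/Kip inhibitors were lower with TGF-β than in DMSO. Cdkn1a (chromosome 17, 29090976 to 29100727, plus strand), which encodes p21, a target of p53, had 2758 and 2456 normalized counts in DMSO, 1490 and 1245 in TGF-β, and 1388 and 1736 in TGF-β+2APB. Both DMSO libraries stood above the other 4, and the libraries with and without 2APB overlapped. TGF-β lowered it 1.91-fold (log2 -0.93, SE 0.15, FDR = 0.00506, edgeR quasi-likelihood), and the highest FDR over the alternatives was 0.0433. The difference between TGF-β+2APB and TGF-β was 0.19 (log2, 95% interval -0.18 to 0.56, FDR = 0.42). The exons of Cdkn1a overlap an annotated gene on the other strand over 7.68% of their bases.

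Cdkn1b (p27, an inhibitor that accumulates in resting cells) had 6411 and 6764 normalized counts in DMSO, 3950 and 4279 in TGF-β, and 3831 and 3816 in TGF-β+2APB. It had the highest per-length level of the Cip/Kip genes in every library, and no library of a TGF-β group reached the DMSO libraries. TGF-β lowered it 1.6-fold (log2 -0.68, SE 0.08, FDR = 0.00142, edgeR quasi-likelihood). The further difference with 2APB was -0.11 (log2, 95% interval -0.29 to 0.08, FDR = 0.38).

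Cdkn1c (p57, an imprinted inhibitor) was counted in few reads. It had 163 and 184 normalized counts in DMSO, 9.74 and 31.1 in TGF-β, and 21.8 and 31.6 in TGF-β+2APB. The DMSO libraries stood far above the others, and its log2 change of -3.08 (SE 0.57, 95% interval -4.5 to -1.67, FDR = 0.00819, edgeR quasi-likelihood) was the largest in size of the 10 members, but also the least precise. The alternatives moved that value between -4.14 and -2.47, with the call kept. With 2APB the difference was 0.39 (log2, interval -1.01 to 1.78, FDR = 0.669). Annotated gene Gm44732 on the other strand covers 30.65% of its exon bases. Strand use in counting is not given in the sources used here, and for Cdkn1c and Ccnd1 reads of the gene and of its overlapping partner cannot be told apart. The same holds over smaller parts of Cdkn1a (7.68% of exon bases), Ccnd2 (7.86%) and Ccnd3 (4.11%), which also overlap genes on the other strand.

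Of the D cyclins only Ccnd1 was called between TGF-β and DMSO. Ccnd1 (chromosome 7, 144929931 to 144939925, minus strand), a known target of growth factor and Wnt signals, had 11917 and 13099 normalized counts in DMSO, 65323 and 60491 in TGF-β, and 65195 and 62747 in TGF-β+2APB. The 4 libraries with TGF-β shared 1 range, far above that of DMSO. TGF-β raised it 5.03-fold (log2 2.33, SE 0.08, FDR = 5.09e-05, edgeR quasi-likelihood), the largest rise of the 10 members. Adding 2APB gave a log2 difference of 0.02 (95% interval -0.17 to 0.22, FDR = 0.859). LTO1, annotated on the other strand, covers 23.36% of the exon bases of Ccnd1.

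Ccnd2 and Ccnd3 showed the other order, with no call for TGF-β and lower values once 2APB was added. Ccnd2 had 23849 and 24013 normalized counts in DMSO, 24762 and 26790 in TGF-β, and 13490 and 17098 in TGF-β+2APB. Ccnd3 had 2974 and 2990 in DMSO, 3234 and 2644 in TGF-β, and 1944 and 2160 in TGF-β+2APB. In both genes the TGF-β+2APB libraries lay below all 4 others. For TGF-β relative to DMSO the log2 differences were 0.11 for Ccnd2 (95% interval -0.2 to 0.41, FDR = 0.524) and -0.02 for Ccnd3 (-0.31 to 0.27, FDR = 0.904).

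Adding 2APB to TGF-β thus left 3 of the 10 members called, all lower: Ccnd2, Ccnd3 and Cdkn2d. Of all tested genes 17.5% were called in that comparison, 6.58% higher and 10.9% lower. The libraries of the groups did not overlap for 6 of the 10 members and for 58% of all tested genes. Ccnd2 fell 1.69-fold (log2 -0.75, SE 0.12, FDR = 0.0152, edgeR quasi-likelihood) and was called in 12 of 15 alternatives (FDR 1.76e-06 to 0.0559). It was lost with only the 4 libraries compared (FDR = 0.0528) and without either DMSO library (FDR = 0.0552 and 0.0559), and held without either TGF-β+2APB library (FDR = 0.0417 and 0.0141). Ccnd3 fell 1.43-fold (log2 -0.52, SE 0.12, FDR = 0.035) and was called in 9 of 15 alternatives (FDR 0.00242 to 0.186). The Ccnd3 call was lost with the replicate block (FDR = 0.079), with only the 4 libraries compared, and without either DMSO library or either TGF-β+2APB library (FDR = 0.1 to 0.186).

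**Figure D2:**
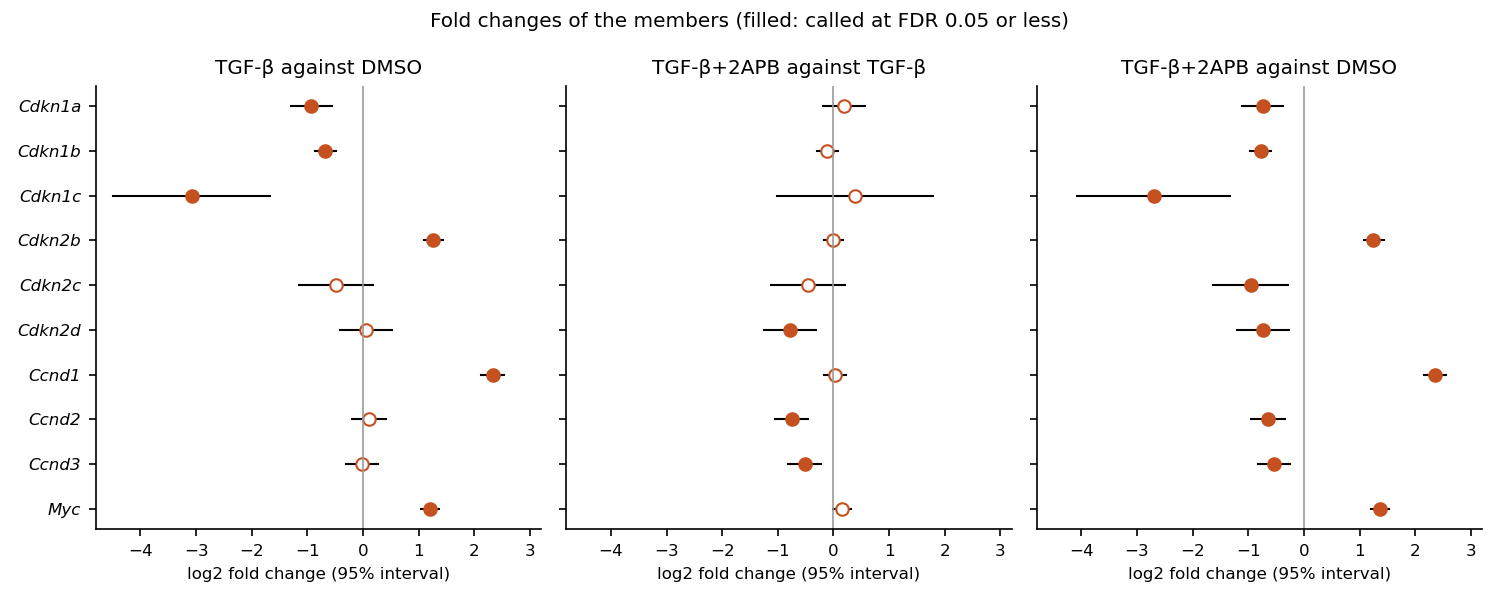
Log2 fold changes of the 10 members with 95% confidence intervals for TGF-β against DMSO, TGF-β+2APB against TGF-β, and TGF-β+2APB against DMSO, filled where FDR is 0.05 or less. For Ccnd1, Cdkn2b, Myc and the 3 Cip/Kip genes the difference from DMSO is present with TGF-β, and the interval for adding 2APB includes 0.

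Myc (chromosome 15, 61985391 to 61990374, plus strand) had 5690 and 5640 normalized counts in DMSO, 13096 and 13117 in TGF-β, and 14688 and 14505 in TGF-β+2APB. The replicates were close and the 3 groups did not overlap. TGF-β raised Myc 2.31-fold (log2 1.21, SE 0.06, FDR = 0.000131, edgeR quasi-likelihood). TGF-β+2APB stood a further 0.16 higher (log2, SE 0.06), which edgeR did not call (FDR = 0.154) and DESeq2 did (FDR = 0.00559), over a range of 0.00559 to 0.653 in the alternatives. No annotated gene overlaps its exons.

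Relative to DMSO, all 10 members were called in TGF-β+2APB, where 52.8% of all tested genes were (25.6% higher and 27.2% lower), and the libraries of the groups overlapped for none of the 10 members and stood apart for 86% of all genes. Both comparisons with DMSO share the same DMSO libraries. Cdkn2b (log2 1.25), Ccnd1 (log2 2.35) and Myc (log2 1.37) were higher. The other 7 were lower, from -2.7 (log2) for Cdkn1c to -0.54 for Ccnd3, with Cdkn1b at -0.78, Cdkn1a at -0.74, Cdkn2d at -0.73 and Ccnd2 at -0.65. Without replicate 1 of TGF-β+2APB only 6 members were called, and Cdkn1a, Cdkn2c, Cdkn2d and Ccnd3 were lost. The Cdkn1a call was also lost without DMSO replicate 1 (FDR = 0.0612, range 0.000108 to 0.0612). The Cdkn2d call was lost without DMSO replicate 2 (FDR = 0.146) and without replicate 2 of TGF-β+2APB (FDR = 0.0807), over a range of 0.00683 to 0.146. The Ccnd3 call was lost without either DMSO library (FDR = 0.0641 and 0.0665), over a range of 0.000507 to 0.0827.

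Levels of different genes were compared per length, as TMM-scaled RPKM, the normalized counts per kilobase of merged exons. Merged exons were longer than the longest transcript for all members but Cdkn1b and Cdkn2b. Among them were Ccnd2 (9.409 against 6.33 kb), Ccnd3 (8.775 against 3.858 kb), Cdkn1a (3.553 against 2.08 kb) and Ccnd1 (4.709 against 3.74 kb). For Cdkn2b both lengths were 1.39 kb, so by the longest transcript Ccnd1 and Ccnd2 would stand above it in DMSO. The order, sums, shares and ratios below therefore depend on the length taken. In DMSO the members were led by Cdkn2b, Ccnd1 and Ccnd2 (35.4, 34.8 and 33.3), and the libraries of Ccnd1 (33.1 and 36.4) overlapped those of both others. They were followed by Myc (27.3), Cdkn1b (18.9), Cdkn1a (9.6), Ccnd3 (4.45), Cdkn2d (3.49), and Cdkn1c and Cdkn2c (1.11 and 1.06, overlapping). With TGF-β, Ccnd1 led at 175, before Cdkn2b (84.7), Myc (63.1), Ccnd2 (35.9) and Cdkn1b (11.8). There Cdkn1a, Ccnd3 and Cdkn2d (5.04, 4.38 and 3.61) overlapped with their neighbours, and Cdkn2c (0.755) and Cdkn1c (0.131) were lowest. In TGF-β+2APB the order of all 10 was the same and no neighbours overlapped.

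**Figure D3:**
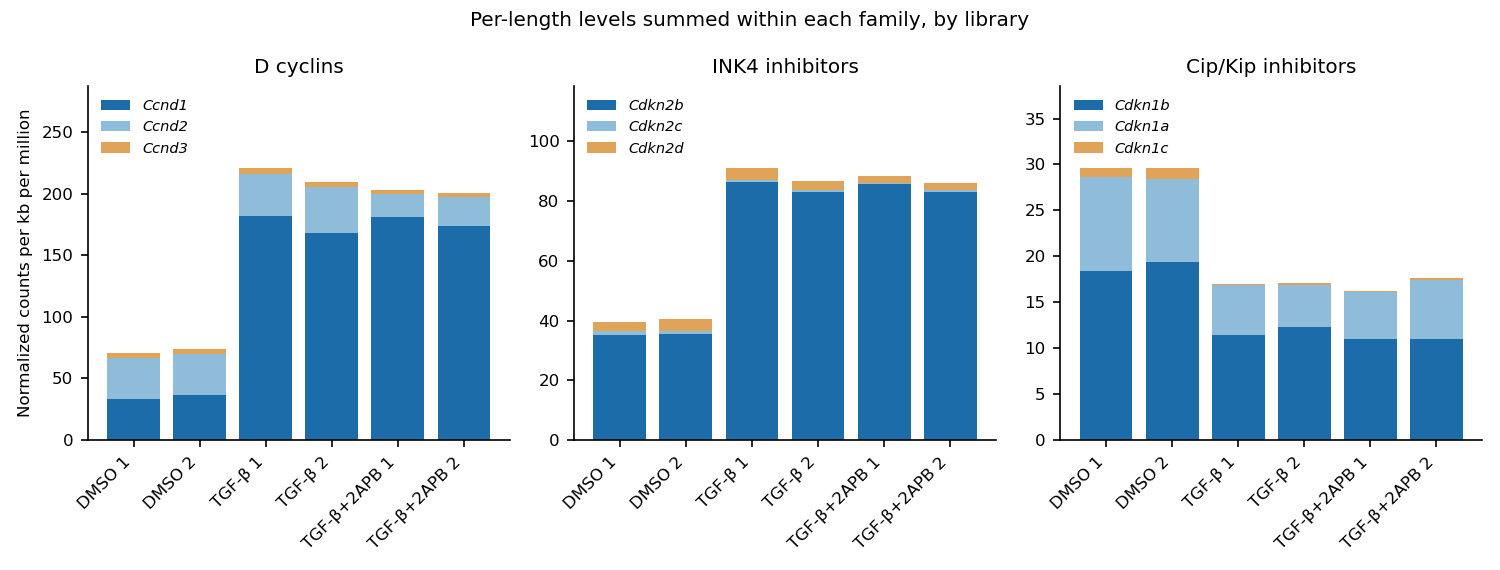
Per-length levels (TMM-scaled RPKM) summed over the D cyclins, the INK4 and the Cip/Kip inhibitors, stacked by gene in each of the 6 libraries. The D cyclin sum rises from 72.5 in DMSO to 215 in TGF-β through Ccnd1, and the Ccnd2 layer is thinnest in TGF-β+2APB.

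Summed per length, D cyclin RNA was 72.5 ± 2.47 in DMSO, 215 ± 8.07 in TGF-β and 202 ± 1.03 in TGF-β+2APB (mean ± SD, n = 2). Ccnd1 made up 47.9% of that sum in DMSO, 81.3% in TGF-β and 88% in TGF-β+2APB, and Ccnd2 45.9%, 16.7% and 10.5%. The INK4 sum was 40 ± 0.731, 89 ± 3.03 and 87.1 ± 1.6, of which Cdkn2b made up 88.6%, 95.1% and 97%. The Cip/Kip sum was 29.7 ± 0.0159 in DMSO, 17 ± 0.131 in TGF-β and 16.9 ± 0.921 in TGF-β+2APB. D cyclin and INK4 RNA thus both stood higher with TGF-β, and their ratio was 1.79 and 1.83 in the DMSO libraries, 2.42 and 2.41 in TGF-β, and 2.3 and 2.34 in TGF-β+2APB. A permutation test of 2 against 2 libraries cannot pass the threshold and no other test of these sums was run, so they are given as values.

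The genes around the members in the pathway were read from lists, given by counts of called genes. Of all tested genes, 21.8% were called higher and 19.7% lower with TGF-β, and 6.58% and 10.9% with 2APB added. Of 10 CDK partners, 3 rose with TGF-β (Ccne1, cyclin E1, by 1.47 on the log2 scale, Cdk2 by 0.54 and Cdc25a, a CDK-activating phosphatase, by 0.44) and none fell. Of 13 pocket proteins and E2F factors, 7 rose, led by E2f7 (1.14), E2f1 (0.73) and Rbl1 (0.71), and 1 fell. Among 19 proliferation genes, 14 rose and none fell, with Cdc6 and Mcm6, which license replication origins, at 1.36 and 0.90, and Mybl2 at 1.06. The medians were 0.21, 0.34 and 0.59 on the log2 scale, against -0.01 for all tested genes.

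With 2APB added to TGF-β, 12 of the 19 proliferation genes fell and none rose, with a median of -1.04. The leading falls were in mitotic genes, Ccnb2 (-2.09), Ccnb1 (-1.69) and Plk1 (-1.60). These genes were not called with TGF-β (log2 -0.24, 0.20 and 0.09). Of the leading rises with TGF-β, Cdc6 and Mybl2 fell with 2APB (log2 -0.78 and -1.05), and Mcm6 was not called (0.17). Of the E2F list 4 fell (E2f7 by 1.32, E2f8 by 1.06 and E2f1 by 0.43 among them) and none rose, and of the CDK partners, Ccna2 (cyclin A2) had a log2 change of -1.64 and Cdk6 of -0.50, while Mnat1 rose by 0.32. Relative to DMSO, 8 proliferation genes were higher and 9 lower in TGF-β+2APB. Among the members, the step of adding 2APB to TGF-β lowered Ccnd2, Ccnd3 and Cdkn2d. The other 7, with Cdkn2b, Cdkn1a, Cdkn1b and Ccnd1 among them, were not called in that step.

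**Figure D4:**
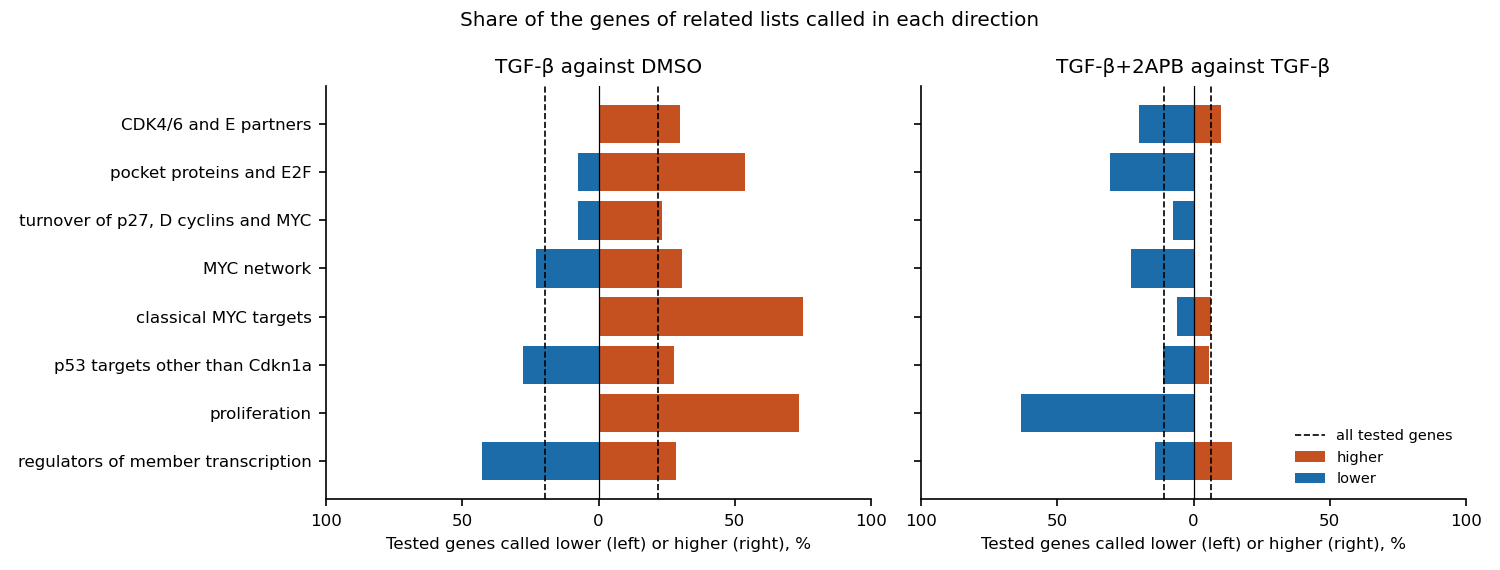
Share of the tested genes of related lists called higher (right) or lower (left), for TGF-β against DMSO and TGF-β+2APB against TGF-β. Dashed lines give the shares of all tested genes. Of 19 proliferation genes, 14 were called higher in the former and 12 lower in the latter. Of 16 MYC targets, 12 were called higher in the former.

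Classical targets of MYC were mostly higher with TGF-β. Myc was higher there too, and its part in the values of these targets was not tested. Of 16, 12 rose and none fell (median log2 0.70), led by the ribosome biogenesis genes Nop56 (1.19) and Rrs1 (0.93) and the pyrimidine synthesis gene Cad (1.02). With 2APB added, 1 rose (Odc1, ornithine decarboxylase, by 0.63) and 1 fell (Ldha, by 0.55). Of the 13 genes of the MYC network itself, 4 rose and 3 fell with TGF-β, where 21.8% and 19.7% of all tested genes did. Mycl, a paralog of Myc, rose by 1.69, while Mlxipl and Mxd1, of the extended MAX and MLX network, fell by 1.61 and 0.98. With 2APB Mlxipl, Mxd3 and Mxd1 fell by 1.72, 1.26 and 0.60.

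The p53 targets other than Cdkn1a had no common direction, with 5 of 18 higher and 5 lower with TGF-β (median log2 -0.25). Of all tested genes, 21.8% were called higher and 19.7% lower in that comparison. Gadd45a (1.5) and Plk2 (1.13) rose and Btg2 fell by 1.40. With 2APB, Gadd45a rose by a further 1.78, Bbc3 fell by 0.69 and Tnfrsf10b by 0.39, and the other 15 were not called. Of 13 genes for the turnover of p27, D cyclins and MYC, 3 rose with TGF-β, where 21.8% of all tested genes did. Cks2 (0.74) and Skp2 (0.50), which marks p27 for degradation, were among these rises. Rchy1, a ubiquitin ligase gene, fell by 0.71. With 2APB only Cks1b of that list was called, with a fall of 0.44.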

How the data were processed

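RNA from NMuMG cells (6 libraries, 2 for each of DMSO, TGF-β and TGF-β+2APB) was sequenced with single-end 50-base reads. The authors checked reads with FastQC 0.11.2, aligned them with TopHat2 2.0.13 and counted them with featureCounts, and deposited raw counts per gene. The labels give mm10, the methods a human build, and the symbols are mouse. Annotation, strand and handling of reads with several alignments are not given in the sources used here. Every deposited count was even, and 25 of 18512 row names had been turned into dates. Symbols were matched to GENCODE M21 (GRCm38) for 17551 rows (94.81%). Totals ran from 71840570 to 79473182 counts, enough for all 10 members to be counted in every library. These totals exceed the average number of reads per sample that the paper reports. Whether reads were counted more than once was not settled, so a count may stand for less than 1 read. With halved counts the same members were called in each comparison.

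Counts were scaled by TMM factors and fitted in edgeR 4.0.16 (R 4.3.3, limma 3.58.1), group only, by quasi-likelihood, with genes of a mean of at least 20 normalized counts and Benjamini-Hochberg FDR 0.05, the minimum and threshold of the methods. Standard errors are log2 fold change over the square root of F. The biological coefficient of variation was 17.4%. Alternatives were DESeq2 1.42.0 (the authors' tool, version 1.6.1 in the labels), RLE or library size scaling, no filter, 10 or more counts per library, a block for the replicate number, only the 4 libraries compared, halved counts, each library left out and, added after seeing the data, a GC content correction (loess, span 0.5) and a block with the TGF-β+2APB numbers exchanged, which is not among the 15 settings counted per member. On simulated data for TGF-β against DMSO, 69 of 98 genes changed by log2 1 were called (70.4%), 90 of 99 changed by log2 2 (90.9%), and 6 of 13041 unchanged genes. The simulation changed few genes, where 41.5% were called in the data. It also gave all libraries of a gene the same dispersion, while replicate spread differed between the groups. Its shares therefore do not give the power or the false calls in these data. Tables and plots used Python 3.11.15, pandas 2.3.3 and matplotlib 3.10.9.

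The members and lists were chosen with earlier results of these data known. Named are the members, the TGF-β response genes, up to 3 called genes of each list with the largest differences in the first 2 comparisons, and the 3 genes nearest to Cdkn2b, Cdkn1a, Ccnd1 and Myc in pattern. Results for 2 genes within this rule are not reported here. The lists were CDK partners, pocket proteins and E2F, turnover, MYC network, MYC targets, p53 targets, proliferation and regulators, with marker lists of other cell types.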

Additional observations from a re-analysis of the deposited data

How the results depend on the processing

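Of 450 values of single members under the alternatives, 406 kept their direction and side of the threshold, 29 lost a call, 1 gained one and 14 changed sign, and no called value changed sign. The sign changes were in uncalled values, near 0 except for Cdkn1c. For TGF-β against DMSO they were in Cdkn2d (-0.12 and -0.11, leaving out a library) and Ccnd3. Ccnd3 gave 0.01 with only the 4 libraries compared, 0.01 without either TGF-β+2APB library and 0.12 without TGF-β replicate 2. With 2APB added, Cdkn2b changed sign (0.01 with DESeq2 or RLE scaling, 0.01 and 0.03 leaving out a library). Ccnd1 did so there too (-0.01 with library size scaling, -0.03 leaving out a library). Cdkn1c, at 0.39 with 2APB added in the main fit, gave -0.22 without TGF-β replicate 1. The genes called between TGF-β+2APB and TGF-β numbered 2334, and 3646 with DESeq2. They numbered 1342 with the replicate block and 860 with only the 4 libraries compared. The cause was not tested. The 4-library setting did not lower every count: it gave 9013 genes from DMSO to TGF-β+2APB (7044 in the main fit). From DMSO to TGF-β it gave 4755 (5548 in the main fit). Leaving out 1 library gave 2753 to 7641 genes for TGF-β against DMSO (5548 with all), 834 to 5405 with 2APB added and 4355 to 9006 for TGF-β+2APB against DMSO (7044 with all). Members called with 2APB added numbered 3, and 1 with the replicate block, 0 with only the 4 libraries compared and 0 to 3 leaving out 1 library. In edgeR's fits with 0 called (the 4 libraries, and without either DMSO library), 3 members had an unadjusted p under 0.05, and DESeq2 on all libraries called 4. Relative to DMSO, 6 to 10 members were called leaving out 1 library. By the longest transcript in place of merged exons, the ratio of summed levels, TGF-β to DMSO, was 0.563 for Cip/Kip (0.573) and 2.74 for D cyclins (2.97). Whether the replicate numbers mark pairs of libraries was not settled. Replicate differences correlated across genes, which are not independent, at r = 0.156 for DMSO with TGF-β, -0.479 for DMSO with TGF-β+2APB and -0.247 for TGF-β with TGF-β+2APB. These correlations cannot decide it, since the replicate differences also followed GC content, with opposite signs in TGF-β and TGF-β+2APB. The block left 6, 1 and 9 members in the 3 comparisons, and the block with exchanged numbers 6, 2 and 10 (5706, 2465 and 7232 genes). The SD of the log2 replicate difference was 0.301 in DMSO, 0.525 in TGF-β and 0.73 in TGF-β+2APB, and its Spearman correlation with GC content -0.144, -0.552 and 0.255. Leaving out 1 library, the uncalled values ranged from -0.12 to 0.24 for Cdkn2d and -0.17 to 0.12 for Ccnd3 with TGF-β, and from -0.22 to 1.44 for Cdkn1c, -0.06 to 0.03 for Cdkn2b and -0.03 to 0.08 for Ccnd1 with 2APB added. With the GC content correction 6, 3 and 10 members were called, as without it.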

Other observations

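Among 14 transcription factors and signal genes known to act on the members, 4 rose and 6 fell with TGF-β, and 2 rose and 2 fell when 2APB was added (edgeR quasi-likelihood, FDR of 0.05 or less). Of all tested genes, 21.8% rose and 19.7% fell with TGF-β, and 6.58% rose and 10.9% fell when 2APB was added. Klf4, a factor known to raise Cdkn1a, fell by 1.25 on the log2 scale with TGF-β (SE 0.15, FDR = 0.00208) and rose by 1.85 with 2APB (SE 0.16, FDR = 0.00375), while Cdkn1a itself was not called in the latter step. A part of Klf4 in the Cdkn1a values was not tested. Foxo4 fell by 1.10 with TGF-β (SE 0.09, FDR = 0.000575). Tcf7l2, a Wnt pathway factor, fell by 0.81 with TGF-β and by a further 0.75 when 2APB was added (FDR = 0.000952 and 0.00556). Smad3 rose by 0.70 with TGF-β and fell by 0.63 when 2APB was added (FDR = 0.00936 and 0.0301). Lef1, another Wnt pathway factor, had 3.9 and 0 normalized counts in DMSO, 95.4 and 89.2 in TGF-β, and 85.1 and 90.8 in TGF-β+2APB.

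The genes most like 4 members in pattern were taken by the distance of log2 CPM, centred on each gene's mean, over 6 libraries. Nearest to Cdkn2b were Dusp5 (0.07) and Myh9 (0.08), and nearest to Myc were Heatr5a (0.05), Nop56 (0.08) and Mpzl1 (0.11). Ccnd1 had Ltbp1 (0.13), Slc35e4 (0.17) and Trabd2b (0.2) as its nearest genes, and Cdkn1a had Flcn (0.15), Hspb1 (0.17) and Zfpm1 (0.2).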
